A study of Mus musculus with 24 samples.

Results

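RNA from aortas of wild-type mice was compared between 6 and 4 months after an infusion of angiotensin II (Ang II), a vasoconstrictor peptide that raises blood pressure. The comparison held 8 of the 24 libraries of the series, 4 Ang II aortas at 6 months and 4 Ang II aortas at 4 months. They were chosen by the column names of the deposited count table and matched to the treatment and time in the labels. The libraries of vehicle-infused (sham) aortas, 4 at 6 months and 4 at 4 months, were set beside them. All 4 groups had worn an osmotic minipump for 2 weeks, carried no engineered allele by their labels (genotype WT), and differed in what the pump held and in the time since then. The labels give no ages and no sex. The sample was a homogenate of the aorta, so that fat, nerve and other tissue attached to the vessel could be part of it. Whether the replicates of a group came from different animals is not in the labels, and a p-value here measures the spread of these samples alone, which may be technical.

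The kind of library differed between the times, in Ang II and in sham aortas alike. The labels name 1 mRNA library kit for all samples. In the counts, however, transcripts of the mitochondrial chromosome M took 32.8% to 52.9% of each Ang II library at 6 months, against 10.5% to 12.5% at 4 months (31.7% to 59.3% of each sham library at 6 months, against 10.1% to 16.3% at 4 months). Rn7sk, a small nuclear RNA without a poly(A) tail, had 3332 to 7194 counts per 1e6 counts off chromosome M in Ang II aortas at 6 months, against 2.33 to 7.86 at 4 months. Protein-coding genes off chromosome M, to which every result below is restricted, held 23.3% to 48.7% of the counts at 6 months and 86.1% to 88.3% at 4 months. In units of 1e6 counts that left 19.9, 19.97, 27.8 and 8.77 in Ang II replicates 1 to 4 at 6 months, and 17.2, 18.6, 18.3 and 16.9 at 4 months. Time and kind of library cannot be told apart in any single comparison of 6 with 4 months. Only the test of whether Ang II and sham aortas changed differently compares groups in which the kind of library changed in the same way.

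The aortic wall consists of an endothelium, a media of smooth muscle cells between elastic sheets, and an adventitia of fibroblasts and collagen, with fat around it that in mice is partly brown. Ang II acts on the vessel mainly through its type 1 receptor, and in mice an infusion is known to bring macrophages and T cells into the adventitia and the surrounding fat and to add collagen to the wall. Histone mRNAs that are made during DNA replication end in a stem-loop and carry no poly(A) tail, whereas mRNAs of replacement histones are polyadenylated like those of most genes, so that histone genes show which RNA ends a library admits.

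The stem-loops below were read from GENCODE vM21 transcripts (mouse build GRCm38, the assembly also called mm10). They are shown because the histone genes had the highest median change of the 42 fixed gene lists. Those lists were chosen with earlier results of these data known. Each line gives 30 bases of the sense strand of a transcript, with the stem-loop in capitals.
Hist1h4f: tctcaaaGGCCCTTTTCAGGGCCacccact
Hist1h3c: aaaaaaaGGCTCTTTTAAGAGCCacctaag
Hist1h1c: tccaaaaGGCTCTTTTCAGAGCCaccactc
Hist3h2a: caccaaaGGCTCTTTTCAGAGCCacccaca
H2afx: ccacaaaGGCCCTTTTAAGGGCCaccacct
The loops of Hist1h4f (histone H4, chr13:23551258-23551648) and Hist1h3c (histone H3, chr13:23744973-23745602) lie 33 and 74 bases before the end of their annotated transcripts. Those of Hist1h1c (linker histone H1, chr13:23738808-23740367), Hist3h2a (histone H2A, chr11:58954685-58956830) and H2afx (the replacement histone H2A.X, chr9:44334694-44336077) are followed by a further 840, 1643 and 822 bases of annotated transcript. A histone stem-loop within 150 bases of the transcript's end was found in 24 of 21901 protein-coding genes with an annotated transcript (0.11%).

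Among all protein-coding genes, 15139 had enough counts to be tested between Ang II aortas at 6 and at 4 months, and 8236 passed an adjusted p of 0.05 (54.4%). Of those tested, 25.0% rose and 29.4% fell, and for changes of 1 or more on the log2 scale these shares were 13.6% and 12.7%. The median log2 fold change over all genes tested was -0.05. In sham aortas 63.9% of 14969 genes passed, of which 4808 rose (32.1%) and 4750 fell (31.7%), and 18.1% rose and 12.7% fell by 1 or more on the log2 scale. With so large a background, a share of a gene list that passed is read below against these percentages.

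Replication-dependent histone genes were higher at 6 months in Ang II aortas. Of 60 genes of this kind 46 could be tested, and 40 of them rose, 2 fell and 4 did not pass, with a median log2 fold change of 5.42. Hist1h4d, a histone H4 gene, had 59.1, 70.5, 113 and 103 CPM in Ang II aortas at 6 months, against 0.114, 0.156, 0.328 and 0.175 CPM at 4 months. The groups were far apart in every library (log2 fold change 8.68, SE 0.37, adjusted p = 1.4e-05). Hist1h4f had 7.15, 10.2, 23.8 and 16.9 CPM in Ang II aortas at 6 months, against 0.0568, 0, 0 and 0.0582 CPM at 4 months. Hist1h2bl, a histone H2B gene, had 0.706, 0.961, 5.84 and 5.5 CPM in Ang II aortas at 6 months, against 0, 0, 0 and 0 CPM at 4 months, which made it at least 74.2-fold higher at 6 months when set against a floor of 3 counts over the 4 libraries. All 16 tested replication-dependent genes whose loop lies within 150 bases of the transcript's end rose, with log2 fold changes of 2.76 to 8.65 (median 5.51). Of the 10 with no loop in an annotated transcript, 8 rose and none fell (median 6.52). Whether their mRNAs have a loop beyond the annotated end was not tested. The 20 whose annotated transcript runs on beyond the loop spread from -1.98 to 8.68, and 16 of them rose and 2 fell. Hist1h1c was at the low end of those that rose (log2 fold change 0.89, SE 0.23, adjusted p = 0.0097), and Hist3h2a fell (log2 fold change -1.32, SE 0.21, adjusted p = 0.001). Members of these clusters share long identical stretches, so counts of single histone genes are uncertain.

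Replacement histones went the other way. Of 11 tested, 8 fell and none rose, with a median log2 fold change of -0.83. H1fx, a linker histone, had 3.34, 3.65, 3.31 and 4.38 CPM in Ang II aortas at 6 months, against 21.9, 20.6, 25.3 and 20.3 CPM at 4 months, and the groups did not overlap (log2 fold change -2.67, SE 0.16, adjusted p = 1.6e-05). H2afx, whose transcript contains the loop, fell too (log2 fold change -1.40, SE 0.50, adjusted p = 0.04). With scaling within 10 bins of exonic length, an alternative added after the data were seen, 3 of the 11 fell (median -0.29), and H2afx did not pass (adjusted p = 0.20). Sham aortas had the same split, with medians of 5.87 for 51 replication-dependent and -0.63 for 11 replacement histone genes.

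The length of a gene's exons ordered the fold changes as well. Genes were put into 4 groups of nearly equal size by exonic length. In the shortest (up to 2736 bases) the median log2 fold change in Ang II aortas was -0.58, and it was -0.26, 0.04 and 0.52 in the next groups up to the longest (from 6756 bases). Among the longest genes 51.6% rose and 11.9% fell. Among the shortest 10.7% rose and 48.4% fell. Sham aortas gave -0.54, -0.18, 0.12 and 0.60 for groups formed in the same way. Across genes Spearman's rho between exonic length and log2 fold change was 0.365 in Ang II and 0.349 in sham aortas, given as a description since genes of 1 library are not independent.

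**Figure D1:**
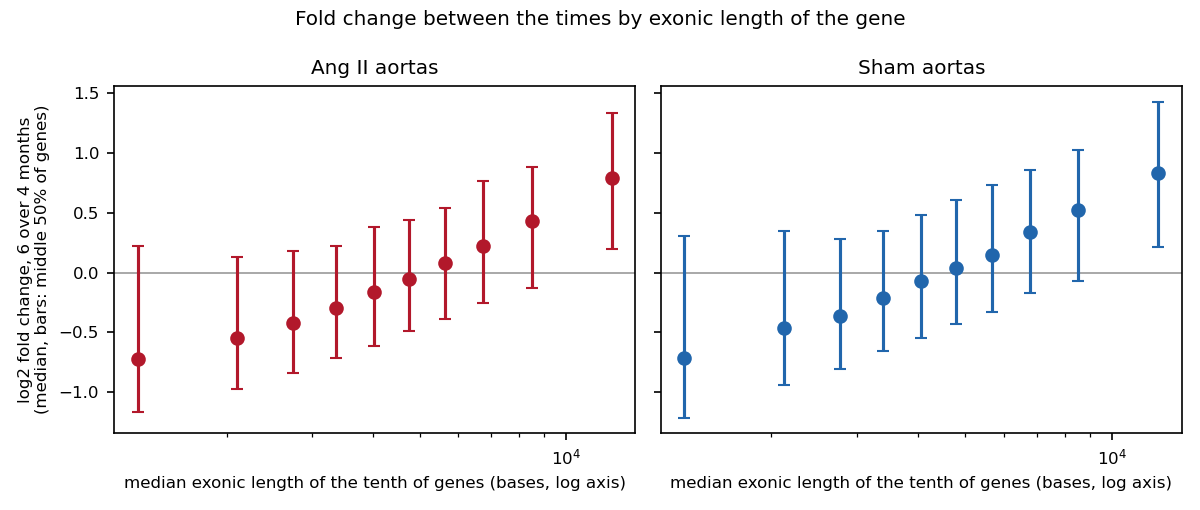
Median log2 fold change of 6 over 4 months (vertical axis; bars span the middle 50% of genes) in 10 bins of genes ordered by exonic length (horizontal log axis, bases), in Ang II aortas (left) and sham aortas (right). Both panels climb from negative medians for short genes to positive medians for long genes.

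Lists made of short or of long genes followed that order. All 27 tested long multi-exon genes rose in Ang II aortas (median log2 fold change 2.08), as did 26 of 27 in sham aortas (1.91). Ttn, the giant elastic protein of the sarcomere with an exonic length of 116825 bases, had 4073, 4919, 18244 and 17369.9 CPM in Ang II aortas at 6 months, against 120.5, 157, 235 and 259 CPM at 4 months. Skeletal muscle genes also summed highest in Ang II replicates 3 and 4 at 6 months (20951 and 18339 CPM). The part of muscle in the rise of Ttn was not tested. Hmcn1, an extracellular matrix protein of the hemicentin family, had 26.1, 36.8, 40.4 and 36.01 CPM in Ang II aortas at 6 months, against 2.16, 2.4, 2.95 and 1.69 CPM at 4 months, with no overlap. Of 37 cytosolic ribosomal protein genes, whose mRNAs are short, 35 fell and none rose (median -1.14), and in sham aortas 34 fell (median -0.85). Rps21, a protein of the small ribosomal subunit, had 88.5, 99.3, 155 and 173 CPM in Ang II aortas at 6 months, against 403, 421, 569 and 446 CPM at 4 months. With scaling within length bins 23 of the 37 ribosomal protein genes fell and 26 of the 27 long genes rose, with medians of -0.71 and 1.33.

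Between the times, Ang II and sham aortas changed largely alike. Across 14832 genes tested in both, the 2 sets of log2 fold changes had a Pearson correlation of 0.871 and a Spearman correlation of 0.825. They share no library, but both pass through the same change in the kind of library. Of the calls, 6821 had the same direction in both, which is 82.8% of those in Ang II and 71.4% of those in sham aortas. Calls in opposite directions numbered 18.

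**Figure D2:**
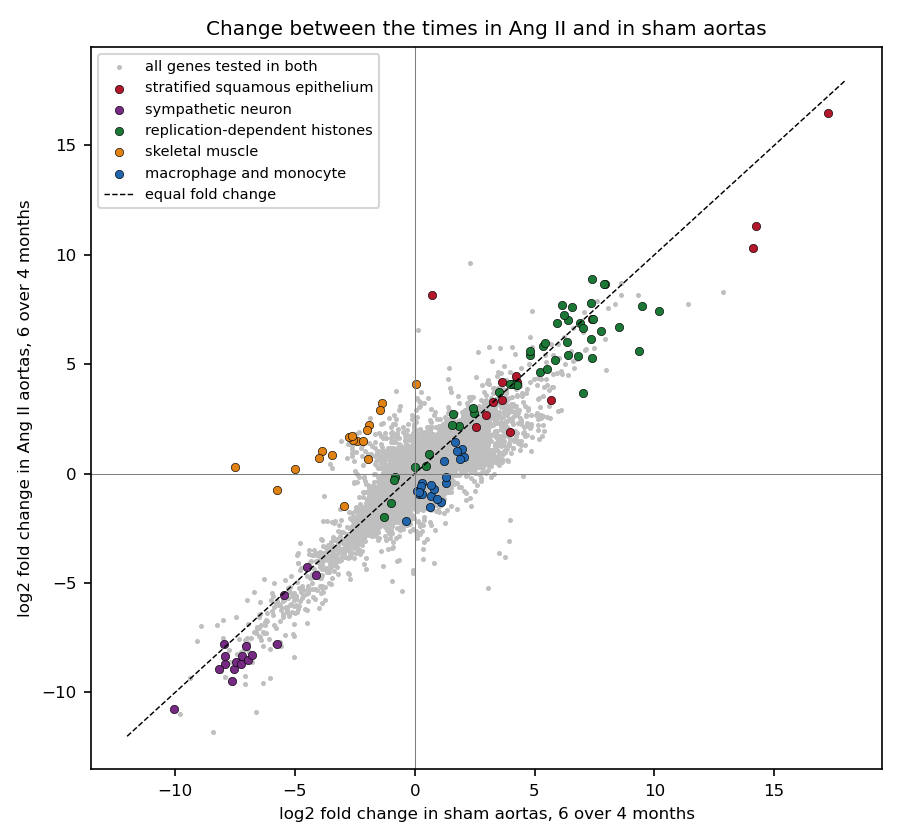
Each point is a gene, with its log2 fold change of 6 over 4 months in sham aortas on the horizontal and in Ang II aortas on the vertical axis; colours mark 5 gene lists and the dashed line marks equal change. Most squamous epithelium, sympathetic neuron and histone genes lie along the line, macrophage genes below it and skeletal muscle genes above it.

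Among the largest falls in Ang II aortas were transcripts of sympathetic neurons, the nerve cells that constrict arteries by releasing noradrenaline. Dbh, dopamine beta-hydroxylase, the enzyme that makes noradrenaline (chr2:27165233-27183200), had 0.659, 0.625, 1.14 and 0.625 CPM in Ang II aortas at 6 months, against 795, 511, 274 and 543 CPM at 4 months. Every library at 6 months was below every library at 4 months (log2 fold change -9.46, SE 0.46, adjusted p = 1.5e-05). Th, tyrosine hydroxylase, which catalyses the rate-limiting step of catecholamine synthesis, had 1.08, 1.01, 1.54 and 0.875 CPM in Ang II aortas at 6 months, against 540.2, 365, 177 and 371 CPM at 4 months. Npy, neuropeptide Y, a co-transmitter of sympathetic nerves, had 0.329, 0.0481, 0.11 and 0.125 CPM in Ang II aortas at 6 months, against 369, 256, 156 and 265 CPM at 4 months. Chga, chromogranin A of dense-core vesicles, had 0.0941, 0.0481, 0.22 and 0.25 CPM in Ang II aortas at 6 months, against 122, 75.6, 34.2 and 45.99 CPM at 4 months. Htr3b, a subunit of a serotonin-gated ion channel, Hmx1, Hand1 and Ina, an intermediate filament of neurons, were also among the 12 genes that fell most, each at under 0.1 CPM in every library at 6 months and at 7.86 CPM or more in every library at 4 months. Nrsn2, a neuronal membrane protein, had no count at 6 months, against 19.5, 11.5, 6.61 and 11.5 CPM at 4 months, and so was at least 314-fold lower.

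The sympathetic genes fell as a block and in sham aortas too. In a list of 17 such genes, chosen after their values were seen, all 17 fell, with log2 fold changes of -10.73 to -4.27. Their summed level was 26.3, 25.6, 26.6 and 44.8 CPM in Ang II aortas at 6 months, against 4623, 2977, 1589.8 and 2945 CPM at 4 months. The sum in sham aortas was 29.6, 27.4, 40.5 and 26.4 CPM at 6 months, against 2661, 1580.0, 4377 and 1567 CPM at 4 months. The Schwann cell and neuronal list shares genes with these 17, Dbh and Npy among them, and was fixed with earlier results of these data known. It is therefore not a separate result. It had 17 of 19 members lower in Ang II aortas (median log2 fold change -4.27) and 17 lower in sham aortas (-4.50). In a homogenate, fewer cells of a type, less RNA per cell and less attached tissue cannot be told apart. The part of the kind of library in this fall was not tested.

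Among the largest rises were transcripts of stratified squamous epithelium, the lining of oesophagus, mouth and skin. Krt13, a keratin of non-cornifying epithelium (chr11:100117327-100121566), had 295, 63.8, 3718 and 3641 CPM in Ang II aortas at 6 months, against 0, 0.0521, 0 and 0 CPM at 4 months. That is 137939 counts at 6 months against 1 count at 4 months, a ratio of 129017 after scaling (95% exact interval 23155.5 to 5095920, counting error only). Sprr3, a small proline-rich protein of the cornified envelope, had 14.7, 3.7, 228 and 298 CPM in Ang II aortas at 6 months, against 0, 0, 0 and 0 CPM at 4 months, at least 2798-fold higher. Against the same floor Crct1, Cnfn and Serpinb3a were at least 2228-, 1992- and 1647-fold higher in Ang II aortas at 6 months. Replicates 3 and 4 had the highest levels of each of these genes, and replicates 1 and 2 were also above every library at 4 months.

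Epithelial transcripts rose in sham aortas as well, and unevenly. Of 19 squamous epithelium genes, again chosen after their values were seen, 18 rose in Ang II aortas. Their sum was 1105, 331, 10948 and 10480.4 CPM in Ang II aortas at 6 months, against 62.8, 86.5, 61.2 and 83.2 CPM at 4 months. The sham sum was 240.4, 171, 31578 and 6183 CPM at 6 months, against 164, 59.8, 35.7 and 74.9 CPM at 4 months. In both treatments replicates 3 and 4 of the later time stood apart from replicates 1 and 2. Genes of other results are therefore also given below without Ang II replicates 3 and 4 where that changed a call.

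Transcripts of other neighbouring tissues varied widely between libraries. Hsd3b1, a steroid-making enzyme of the adrenal cortex and gonads, had no count in any Ang II aorta at 6 months, against 76.95, 5.27, 6.77 and 3.49 CPM at 4 months, at least 584-fold lower, and 1 library at 4 months carried most of it. Cyp21a1, adrenal 21-hydroxylase, had 0, 0, 0.11 and 0 CPM in Ang II aortas at 6 months, against 57.4, 1.93, 5.13 and 3.78 CPM at 4 months. Slc34a1, the phosphate transporter of the kidney's proximal tubule, had 39.9, 8.89, 4.3 and 1.88 CPM in Ang II aortas at 6 months, against 0, 0, 0.109 and 0.0582 CPM at 4 months. Airway epithelium genes summed to 3970.0 to 8213.8 CPM in Ang II aortas at 6 months, against 151 to 8894 CPM at 4 months, and only 3 of 16 tested rose, none of them without Ang II replicates 3 and 4.

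Skeletal muscle transcripts separated the replicates of the later time. The 19 listed genes summed to 1651, 2569, 20951 and 18339 CPM in Ang II aortas at 6 months, against 542, 2081, 4087 and 6474 CPM at 4 months. Neb, nebulin of the thin filament, had 207, 333, 2247 and 2238 CPM in Ang II aortas at 6 months, against 12.2, 50.05, 65.9 and 146 CPM at 4 months, and Myh1, a fast myosin heavy chain, had 149, 226, 2101 and 2359.9 CPM in Ang II aortas at 6 months, against 29.3, 164, 153 and 264 CPM at 4 months. Of 18 tested, 3 rose (median log2 fold change 1.505), whereas in sham aortas 10 fell and none rose (median -2.60), where replicate 2 at 4 months alone summed to 19397 CPM. Without Ang II replicates 3 and 4 none of the 18 rose and the median was -0.75.

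**Figure D3:**
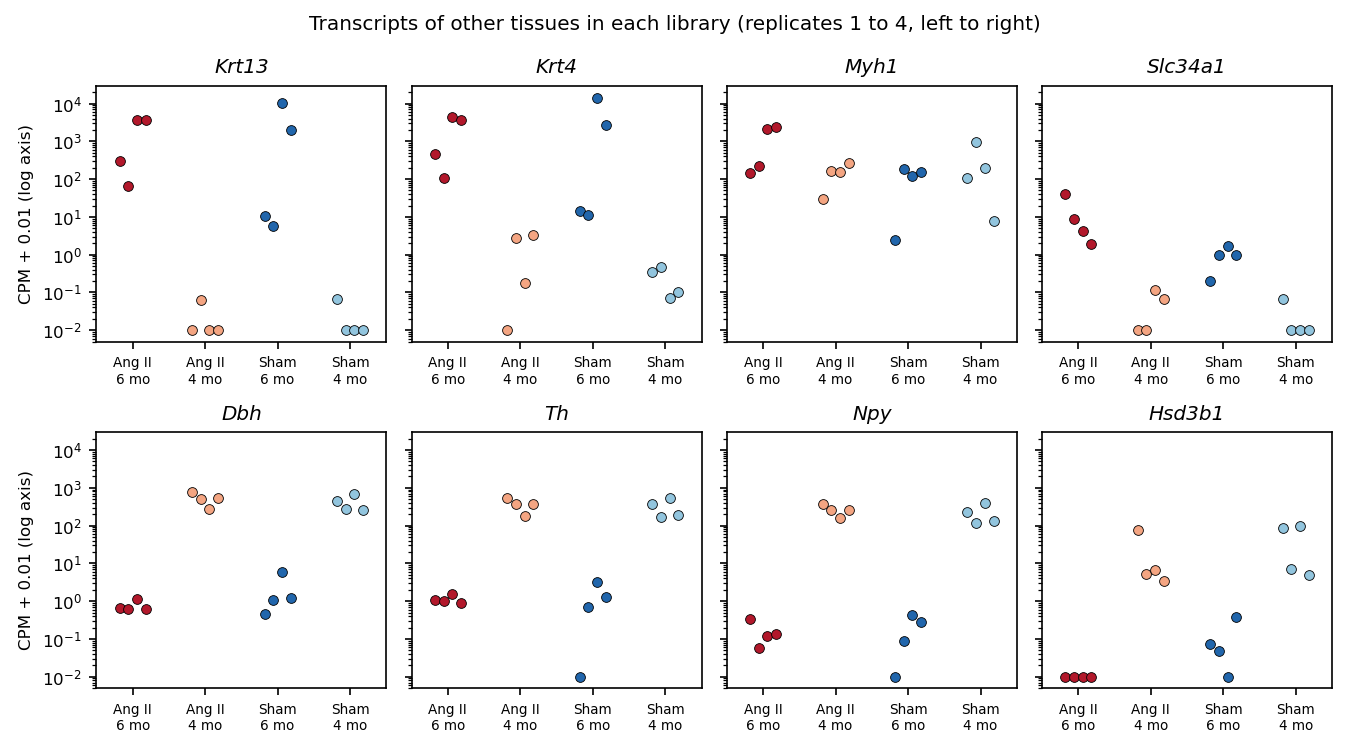
Level of 8 transcripts in each library (CPM plus 0.01, log axis), with the groups in the order Ang II at 6 and 4 months, then sham at 6 and 4 months, and replicates 1 to 4 from left to right. Krt13 and Krt4 are high only at 6 months and differ between replicates, and Dbh, Th and Npy are high in every library at 4 months and low in every library at 6 months.

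Markers of the aortic wall itself were present in all 16 libraries, with 1 exception. Pecam1 and Cdh5, adhesion molecules of endothelium, lay at 198 to 371 and 162 to 210 CPM in Ang II aortas at 6 months, against 210 to 261 and 173 to 210 CPM at 4 months. Dcn, the fibroblast proteoglycan decorin, lay at 796 to 1032 CPM at 6 months, against 768 to 825 CPM at 4 months. None of these 3 passed between the times in Ang II aortas. In sham aortas Cdh5 fell (log2 fold change -0.30, adjusted p = 0.045) and Dcn rose (0.64, adjusted p = 0.02). The defining markers Pdgfra, Acta2 and Myh11 did rise in Ang II aortas (log2 fold changes 1.32, 1.03 and 1.60), as given below. Tagln, transgelin, a defining marker of smooth muscle, lay at only 1.51 to 6.61 CPM in all 16 libraries.

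Fibrillar collagens and elastic fibre genes rose in Ang II aortas between 4 and 6 months. Of 18 collagen genes 12 rose, none fell and 6 did not pass (median log2 fold change 0.91). Col1a1, a chain of type I collagen (chr11:94936224-94953042), had 796, 554, 521 and 532 CPM in Ang II aortas at 6 months, against 226, 206, 152 and 209.6 CPM at 4 months. All libraries at 6 months lay above all at 4 months (log2 fold change 1.52, SE 0.19, adjusted p = 0.00028). Col3a1, type III collagen, had 1018, 941, 852 and 950.2 CPM in Ang II aortas at 6 months, against 401, 319, 296 and 358 CPM at 4 months (log2 fold change 1.37, SE 0.14, adjusted p = 9.9e-05). Col14a1 and Col12a1, which decorate the surface of collagen fibrils, rose by log2 fold changes of 2.21 (SE 0.13, adjusted p = 1.7e-05) and 1.89 (SE 0.21, adjusted p = 0.00015). The basement membrane chains Col4a1 and Col4a2 had log2 fold changes of 0.02 and -0.04 and did not pass.

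In the elastic fibre and crosslinking list 19 of 22 genes rose and none fell (median log2 fold change 1.06). Fbn1, fibrillin-1, the main protein of microfibrils (chr2:125300594-125507993), had 357, 280.1, 270.4 and 238 CPM in Ang II aortas at 6 months, against 38.8, 49.5, 35.8 and 50.5 CPM at 4 months, and the groups did not overlap (log2 fold change 2.63, SE 0.18, adjusted p = 2e-05). Eln, which encodes tropoelastin, had 280.1, 227, 315 and 281 CPM in Ang II aortas at 6 months, against 159, 141, 64.8 and 91.8 CPM at 4 months (log2 fold change 1.19, SE 0.27, adjusted p = 0.0059). Loxl4, an enzyme that crosslinks collagen and elastin, had 10.3, 10.8, 11.6 and 14.9 CPM in Ang II aortas at 6 months, against 1.93, 2.03, 1.37 and 2.04 CPM at 4 months. Fbln1, the glycoprotein fibulin-1, rose by a log2 fold change of 1.82 (SE 0.13, adjusted p = 2.2e-05).

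The other matrix lists moved less uniformly. Among matricellular proteins and proteoglycans 11 of 20 rose and 1 fell (median log2 fold change 0.83). Thbs1, thrombospondin-1, had 128, 200.2, 149 and 185 CPM in Ang II aortas at 6 months, against 19.3, 21.9, 40.1 and 31.5 CPM at 4 months, and Vcan, versican, had 57.2, 52.6, 36.2 and 44.5 CPM in Ang II aortas at 6 months, against 11.4, 9.28, 6.33 and 9.95 CPM at 4 months, both without overlap. Among metalloproteases and their inhibitors 9 of 18 rose and 2 fell. Mmp9, a gelatinase, had 28.98, 35.9, 19.9 and 33.01 CPM in Ang II aortas at 6 months, against 9.26, 18.4, 8.36 and 11.4 CPM at 4 months, whereas Mmp12, the macrophage elastase, had 0.941, 0.673, 0.625 and 1 CPM in Ang II aortas at 6 months, against 15.05, 2.87, 3.28 and 1.75 CPM at 4 months (log2 fold change -2.92, SE 0.71, adjusted p = 0.0075). Without Ang II replicates 3 and 4 the adjusted p of Mmp12 was 0.061.

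The rise of matrix genes was not particular to Ang II aortas. In sham aortas 13 of 18 collagens (median log2 fold change 1.26) and 16 of 21 elastic fibre genes (1.11) rose, and no gene of either list passed the test of a different change. Fbn1 had 493, 508, 435 and 454 CPM at 6 months, against 28.4, 39.1, 25.1 and 80.1 CPM at 4 months in sham aortas. Many of these genes are long. Set against the median of genes in the same bin of exonic length, the list medians in Ang II aortas were 0.41 for collagens, 0.98 for elastic fibre genes and 1.03 for matricellular genes. With scaling within those bins 9 collagens rose and 1 fell, and 18 elastic fibre genes rose. The part of the kind of library in what remains was not tested.

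**Figure D4:**
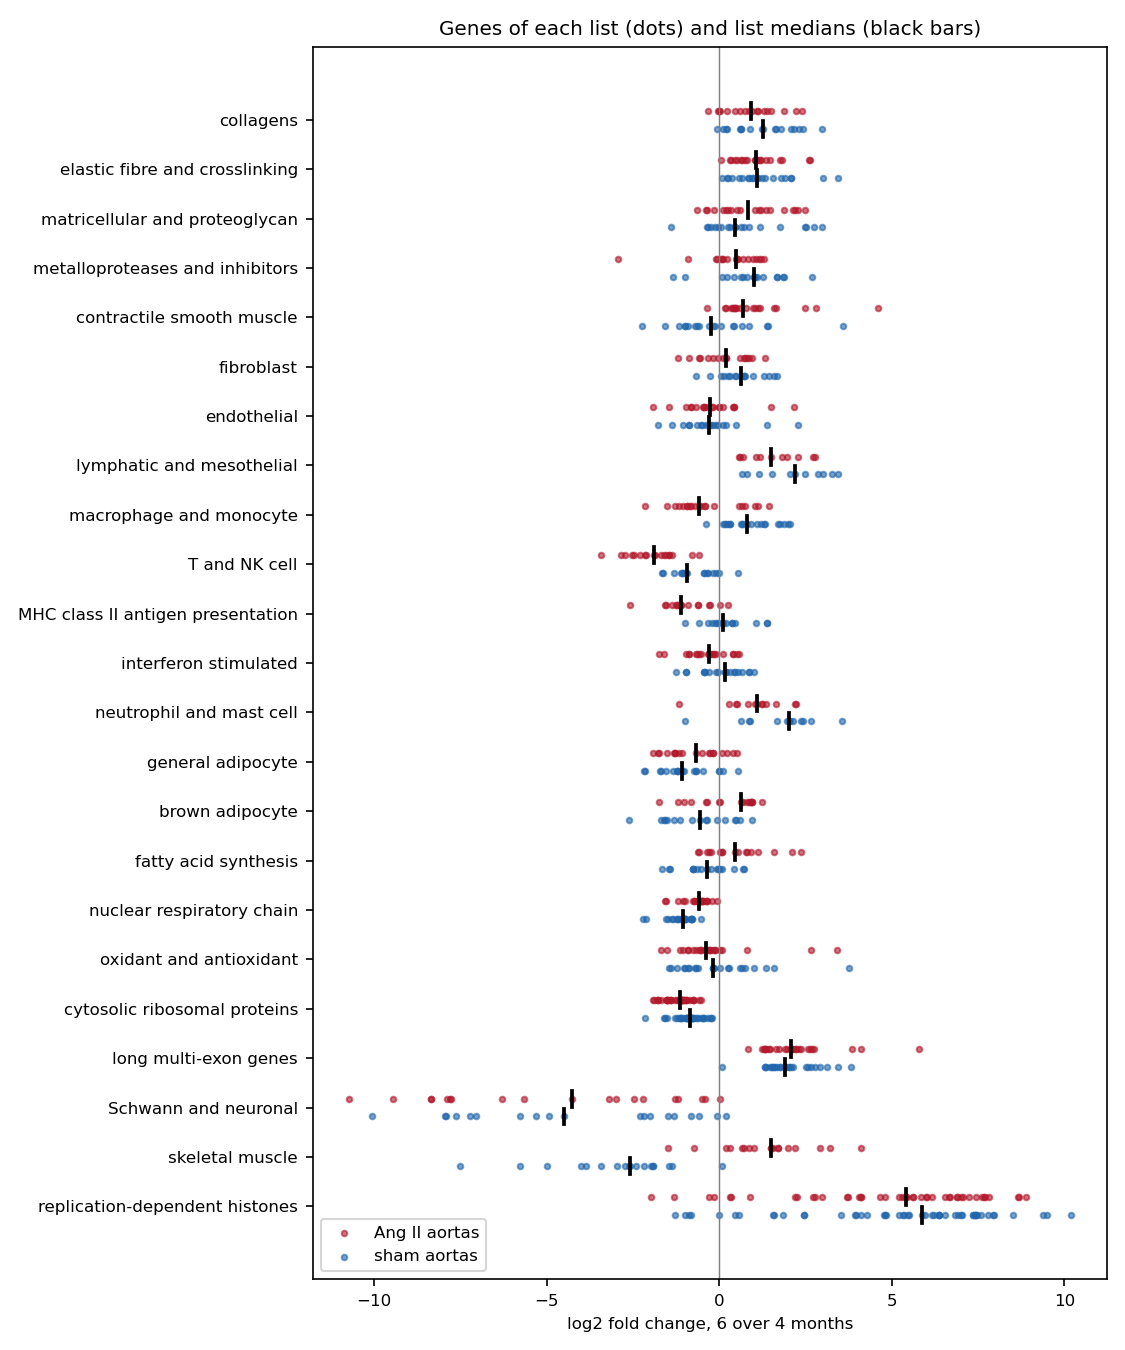
Log2 fold change of 6 over 4 months (horizontal axis) for each tested gene of 23 lists, in Ang II aortas (upper row of each list) and sham aortas (lower row), with list medians as black bars. Matrix lists lie to the right in both treatments, while the macrophage, MHC class II, interferon, skeletal muscle, contractile, brown adipocyte and fatty acid synthesis lists have medians of opposite sign in Ang II and sham aortas.

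Contractile smooth muscle genes rose in part. Of 20 tested, 10 rose, none fell and 10 did not pass (median log2 fold change 0.68). Myh11, smooth muscle myosin heavy chain (chr16:14194527-14291408), had 489, 397, 616 and 596 CPM in Ang II aortas at 6 months, against 211, 172, 82.5 and 189 CPM at 4 months (log2 fold change 1.60, SE 0.29, adjusted p = 0.0019). Acta2, smooth muscle alpha-actin (chr19:34241090-34255336), had 839, 706, 596 and 412 CPM in Ang II aortas at 6 months, against 419.9, 306, 159 and 294 CPM at 4 months, and the groups overlapped (log2 fold change 1.03, SE 0.31, adjusted p = 0.021). Its call was lost without 1 of the 8 libraries. Myocd, the transcriptional coactivator that drives the contractile programme, had 38.9, 35.1, 37.6 and 28.6 CPM in Ang II aortas at 6 months, against 1.93, 0.991, 1.53 and 1.05 CPM at 4 months. Cnn1 and Tagln, 2 further defining markers, had log2 fold changes of 0.41 and 0.45 and did not pass.

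In sham aortas 4 contractile genes rose and 4 fell (median log2 fold change -0.24). There Acta2 had 439.9, 604, 464 and 681 CPM at 6 months, against 318, 338, 323 and 1492 CPM at 4 months, and Myh11 had 395, 463, 333 and 476 CPM at 6 months, against 159.8, 183, 166 and 744 CPM at 4 months. Replicate 4 of the sham aortas at 4 months stood above the other 3 in both genes. None of the 20 contractile genes passed the test of a different change in Ang II and sham aortas. The striated muscle genes of the preceding results rose in the same Ang II replicates in which the contractile list summed highest, 3989, 3966, 7766 and 7103 CPM at 6 months, against 2557, 2482, 2577 and 3215 CPM at 4 months, and their part in the sum was not tested. Without Ang II replicates 3 and 4, Acta2 (log2 fold change 1.40, adjusted p = 0.013) and Myh11 (1.44, adjusted p = 0.012) kept their calls.

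Endothelial and fibroblast lists were mixed. Of 20 endothelial genes 3 rose and 10 fell. Vwf, von Willebrand factor, had 233, 275, 609 and 311 CPM in Ang II aortas at 6 months, against 82.004, 86.9, 67.9 and 63.5 CPM at 4 months, and Ptprb, the endothelial phosphatase VE-PTP, rose too (log2 fold change 1.502, SE 0.18, adjusted p = 0.00021). Cldn5, the tight junction protein claudin-5, had 30.3, 32.9, 43.7 and 26.9 CPM in Ang II aortas at 6 months, against 96.4, 121, 125 and 134 CPM at 4 months. Of 17 fibroblast genes 6 rose and 4 fell, or 9 and 2 with scaling within length bins; Pdgfra, a platelet-derived growth factor receptor, had 114, 103, 89.5 and 95.6 CPM in Ang II aortas at 6 months, against 40.6, 43.4, 32.1 and 36.3 CPM at 4 months. In the list of lymphatic and mesothelial genes 10 of 11 rose and none fell (median log2 fold change 1.502), with Wt1, a transcription factor of mesothelium, at 23.9, 31.7, 33.9 and 72.5 CPM in Ang II aortas at 6 months, against 5.96, 4.48, 7.75 and 5.06 CPM at 4 months. All 11 rose in sham aortas.

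Of 21 macrophage and monocyte genes, 2 changed differently in Ang II and in sham aortas and 19 did not pass that test. The interaction test, which asks whether the change between the times differed between the treatments, covered 15655 genes and 16 libraries. It called 5 (0.0319%), 1 with a higher change in Ang II aortas (0.00639%) and 4 with a lower one (0.0256%), while 2128 genes had an unadjusted p under 0.05. Of the 4, Cd68 and Ms4a7 are the macrophage genes. With DESeq2 in place of edgeR 305 genes were called, all 5 among them. The edgeR calls were lost in most fits that left out 1 library, as given under the processing.

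Cd68, a lysosomal glycoprotein of macrophages (chr11:69664213-69666153), had 13.8, 11.6, 13.2 and 24.01 CPM in Ang II aortas at 6 months, against 33.1, 43.9, 46.5 and 42.7 CPM at 4 months. All 4 libraries at 6 months lay below all 4 at 4 months (log2 fold change -1.50, SE 0.23, adjusted p = 0.00083). In sham aortas it had 22.6, 23.2, 16.5 and 16.1 CPM at 6 months, against 11.4, 10.8, 13.7 and 14.4 CPM at 4 months, and there the later libraries were the higher ones (log2 fold change 0.63, adjusted p = 0.012). The difference between the changes was -2.06 (log2, SE 0.30, adjusted p = 0.035). Ms4a7, a membrane protein of macrophages (chr19:11321039-11336146), had 5.55, 4.66, 4.41 and 3.88 CPM in Ang II aortas at 6 months, against 11.6, 9.8, 10.2 and 11.002 CPM at 4 months, with no overlap (log2 fold change -1.28, SE 0.17, adjusted p = 0.00041). Sham aortas had 7.18, 6.7, 5.24 and 3.8 CPM at 6 months, against 3.14, 2.57, 1.75 and 3.14 CPM at 4 months. The difference between its changes was -2.31 (log2, SE 0.32, adjusted p = 0.031).

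At 4 months, then, both genes were higher in Ang II than in sham libraries without overlap, and at 6 months the ranges of Ang II and sham libraries overlapped. At 2 months, on a scale common to all 24 libraries, Cd68 lay at 32.4 to 47.0 CPM in Ang II aortas and 9.68 to 21.9 CPM in sham aortas. Over the whole macrophage and monocyte list 9 of 21 genes fell and 4 rose in Ang II aortas (median log2 fold change -0.58), while 13 rose and none fell in sham aortas (0.80). The 4 that rose in Ang II aortas were Adgre1, Csf1r, Mrc1 and Cd163, the last of which had 90.3, 83.003, 101 and 112 CPM in Ang II aortas at 6 months, against 29.1, 38.6, 30.5 and 37.02 CPM at 4 months. Those that fell were Cd68, Ms4a7, Mpeg1, Aif1, Tyrobp, Cd14 and the complement genes C1qa, C1qb and C1qc. The median difference of change over the list was -1.14, against -0.04 over all genes tested. Such a shift was not particular to macrophage genes. Lists in which no gene passed had medians of -1.81 (airway epithelium), -1.63 (cell cycle), -1.40 (B and plasma cell), -1.11 (MHC class II) and -1.07 (T and NK cell). The median of the skeletal muscle list, again with no gene passing, was 4.39.

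Several of these mRNAs are short. Aif1, a cytoskeletal protein of macrophages, had 2.4, 2.36, 2.57 and 4.13 CPM in Ang II aortas at 6 months, against 7.04, 12.1, 14.8 and 13.3 CPM at 4 months. With scaling within length bins 4 macrophage genes fell and 5 rose in Ang II aortas, and the list median was -0.01. Cd68 kept its fall there (log2 fold change -0.80, adjusted p = 0.013). The interaction test, in which the kind of library changes on both sides, called 5 genes with that scaling too, the same 5.

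The other 3 interaction genes are not macrophage markers. Mmp14, a membrane-bound collagenase (chr14:54431612-54445364), had 48.5, 46.6, 48.4 and 54.6 CPM in Ang II aortas at 6 months, against 45.5, 50.7, 51.1 and 52.4 CPM at 4 months, a log2 fold change of -0.09 that did not pass. In sham aortas it had 71.3, 71.4, 63.8 and 59.6 CPM at 6 months, against 29.9, 29.7, 30.5 and 38.9 CPM at 4 months, without overlap, so that the difference between the changes was -1.06 (log2, SE 0.14, adjusted p = 0.031). Uap1l1, a protein related to an enzyme of amino sugar metabolism (chr2:25359889-25365682), had 21.6, 19.2, 19.9 and 17.8 CPM in Ang II aortas at 6 months, against 28.2, 32.8, 31.8 and 30.9 CPM at 4 months. Sham aortas had 29.1, 23.9, 20.5 and 21.4 CPM at 6 months, against 19.6, 16.5, 18.3 and 16.2 CPM at 4 months. Fam83a (chr15:57985419-58011009) had 14.9, 10.6, 12.5 and 9.38 CPM in Ang II aortas at 6 months, against 8.01, 6.83, 10.4 and 9.95 CPM at 4 months and in sham aortas 7.05, 7.72, 5.33 and 6.86 CPM at 6 months, against 14.7, 14.7, 15.5 and 14.4 CPM at 4 months, the only one of the 5 with the higher change in Ang II aortas.

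Further genes with an interaction p among the smallest 10 did not pass adjustment. Ccl8, a chemokine that attracts monocytes and T cells, had 7.34, 6.01, 5.95 and 9.75 CPM in Ang II aortas at 6 months, against 21.01, 53.5, 16.8 and 36.96 CPM at 4 months. In sham aortas it had 12.2, 17.2, 7.62 and 8.64 CPM at 6 months, against 5.95, 3.11, 1.87 and 7.7 CPM at 4 months. Its adjusted interaction p was 0.098. Hpgds, prostaglandin D synthase, and Ptafr, the receptor of platelet-activating factor, had adjusted interaction p-values of 0.098 and 0.078. Of the 18 genes called in opposite directions in Ang II and sham aortas, 13 fell in Ang II aortas, among them the macrophage list members Cd68, Ms4a7, Mpeg1, Tyrobp and C1qb.

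**Figure D5:**
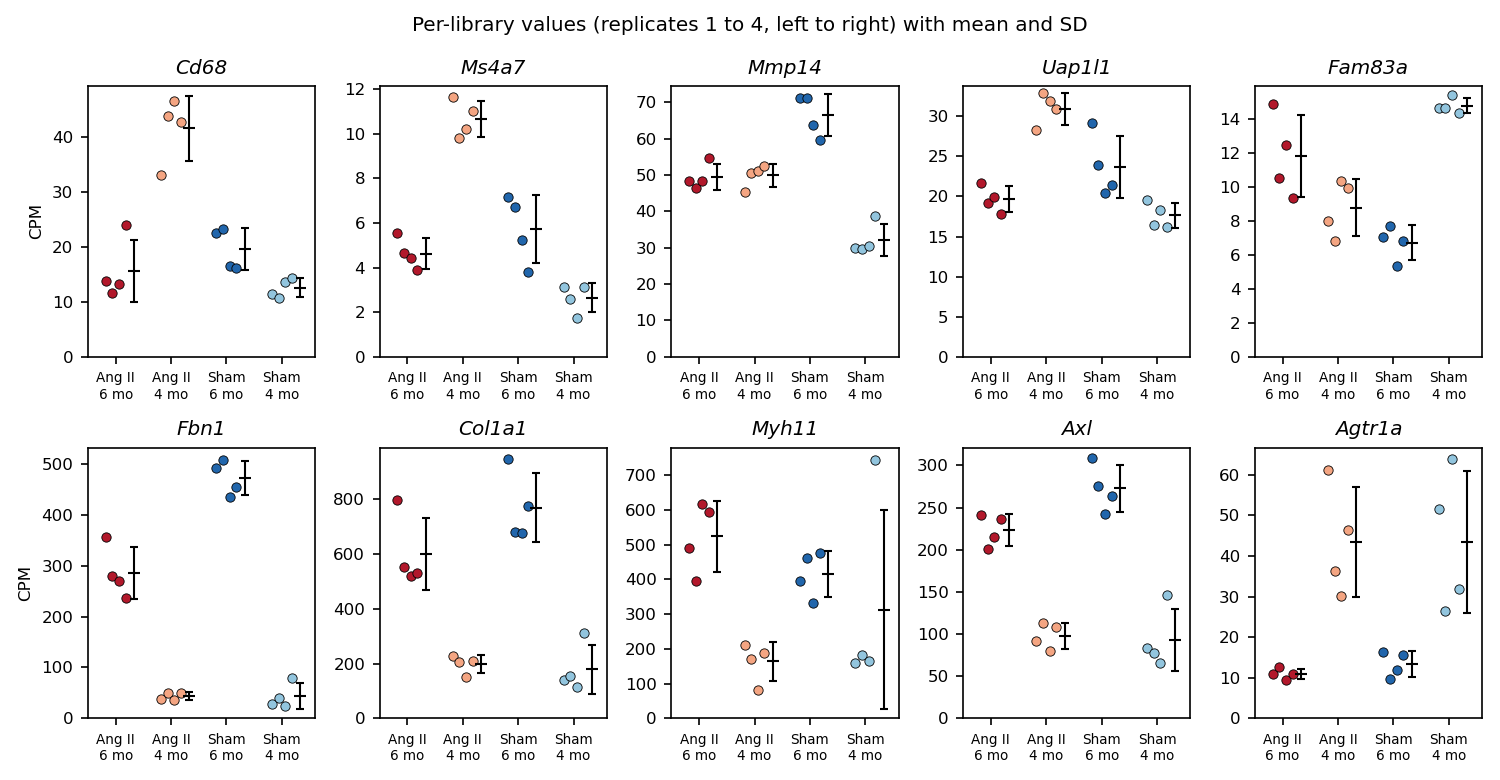
Level in each library (CPM, replicates 1 to 4 from left to right) with mean and SD of 4, for the 5 genes of the interaction test (upper row) and 5 genes of the wall and of Ang II signalling (lower row), in the order Ang II at 6 and 4 months, sham at 6 and 4 months. Cd68, Ms4a7 and Uap1l1 are highest in Ang II aortas at 4 months. The lower row moves alike in both treatments, except that sham replicate 4 at 4 months stands high for Myh11.

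T cell genes fell in part in Ang II aortas. Of 18 T and NK cell genes 10 fell and none rose, with log2 fold changes of -3.43 to -0.60 over the list. With scaling within length bins 5 of the 18 fell (median -1.55). Cd3d, a chain of the T cell receptor complex, had 0.376, 0.769, 2.39 and 1.63 CPM in Ang II aortas at 6 months, against 3.63, 7.56, 25.6 and 16.1 CPM at 4 months. Replicates 3 and 4 at 4 months were the highest. Nkg7, of cytotoxic granules, had 1.41, 0.865, 0.772 and 2.25 CPM in Ang II aortas at 6 months, against 4.54, 5.79, 12.8 and 8.91 CPM at 4 months, and Ccl5, a chemokine of T cells, had 2.59, 2.02, 1.43 and 5.63 CPM in Ang II aortas at 6 months, against 10.5, 18.6, 35.99 and 42.7 CPM at 4 months. In sham aortas no gene of the list passed (median log2 fold change -0.94), and no difference between the treatments passed either. The B cell list had 1 of 14 genes lower, Tnfrsf13c, the receptor of the survival factor BAFF, which had 1.88, 1.54, 1.69 and 7.63 CPM in Ang II aortas at 6 months, against 0.965, 8.6, 52.6 and 19.9 CPM at 4 months with overlap between the groups. Its call was lost without Ang II replicates 3 and 4 (adjusted p = 0.084) and with scaling within length bins (adjusted p = 0.10).

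Some antigen presentation and interferon genes fell, at shares not far from the 29.4% of all genes tested. Of 16 genes of MHC class II presentation 6 fell and none rose (median log2 fold change -1.12). None of the 16 passed the test of a different change in Ang II and sham aortas. H2-Eb1, a chain of a class II molecule, had 156, 174, 151 and 222 CPM in Ang II aortas at 6 months, against 232, 323, 616 and 382 CPM at 4 months (log2 fold change -1.22, SE 0.28, adjusted p = 0.006), but with scaling within length bins its adjusted p was 0.084 and 2 of the 16 genes fell. Without Ang II replicates 3 and 4, 3 fell. Of 21 interferon-stimulated genes 8 fell and 2 rose (median -0.29), a share near that of all genes, and with scaling within length bins 4 fell and none rose (median -0.04). Bst2, the antiviral membrane tether tetherin, had 22.8, 19.03, 26.9 and 40.8 CPM in Ang II aortas at 6 months, against 78.7, 93.1, 86.01 and 86.4 CPM at 4 months. Of 19 chemokine and cytokine genes 4 rose and 6 fell. Cxcl9, a chemokine induced by interferon gamma, had 9.31, 13.6, 9.77 and 11.5 CPM in Ang II aortas at 6 months, against 46.4, 47.02, 54.2 and 36.9 CPM at 4 months, and in sham aortas it fell as well (log2 fold change -1.58). In the combined neutrophil and mast cell list 7 of 13 genes rose and 1 fell, and 9 rose and 1 fell in sham aortas. Cpa3, mast cell carboxypeptidase, had 24.7, 28.7, 18.04 and 22.01 CPM in Ang II aortas at 6 months, against 3.63, 6.78, 3.22 and 5.36 CPM at 4 months.

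Adipocyte genes fell in part. Of 19 genes of fat cells in general 11 fell and none rose (median log2 fold change -0.67), and their sum was 26367, 32288, 27410.3 and 21915 CPM in Ang II aortas at 6 months, against 56614, 61391, 66354 and 57605 CPM at 4 months. Without Ang II replicates 3 and 4, 9 fell and 4 rose (median -0.33). Cfd, adipsin, had 2440.4, 4340.4, 4159 and 4329.7 CPM in Ang II aortas at 6 months, against 12067, 14372, 16238 and 12143 CPM at 4 months (log2 fold change -1.92, SE 0.25, adjusted p = 0.00032). Fabp4, the fatty acid binding protein of adipocytes, had 2524, 3154, 3608 and 2779.6 CPM in Ang II aortas at 6 months, against 10028, 9415, 10508 and 8456 CPM at 4 months. Adipoq, adiponectin, had a log2 fold change of -1.30 (adjusted p = 0.00015). In sham aortas 15 fell and 1 rose (median -1.08). The list's level moved with the time in all 16 libraries, and its part in the other results was not tested beyond the fit with it as a covariate, given under the processing.

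Genes of fatty acid synthesis moved mainly upwards in Ang II aortas. Of 17 genes 8 rose and 3 fell; no gene fell with scaling within length bins (7 rose) or without Ang II replicates 3 and 4 (10 rose). Scd1, stearoyl-CoA desaturase, had 27642, 18592, 11417 and 7476 CPM in Ang II aortas at 6 months, against 3056, 3459, 2602 and 2787 CPM at 4 months (log2 fold change 2.37, SE 0.40, adjusted p = 0.0012). Fasn, fatty acid synthase, had 8579, 8279, 6318 and 3572 CPM in Ang II aortas at 6 months, against 1499, 1941, 814 and 1576 CPM at 4 months (log2 fold change 2.11, SE 0.36, adjusted p = 0.0013). Acaca, acetyl-CoA carboxylase, had 1485, 1498, 1210.3 and 713 CPM in Ang II aortas at 6 months, against 461, 414, 281 and 378 CPM at 4 months. Each was highest in replicates 1 and 2 at 6 months and lowest of that time in replicate 4, and no library at 4 months reached them. In sham aortas 2 rose and 5 fell, Fasn had 4658, 8015, 5132 and 4472 CPM at 6 months, against 2679, 2808, 2106 and 14715 CPM at 4 months, and replicate 4 at 4 months lay above all others. No gene of the list passed the test of a different change.

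Brown fat genes were divided. Of 17 tested, 7 rose and 4 fell in Ang II aortas (median log2 fold change 0.64; 5 rose and 2 fell with scaling within length bins), while 2 rose and 9 fell in sham aortas (-0.56). Ucp1, the uncoupling protein that makes heat, had 1219, 1589, 1139 and 490.4 CPM in Ang II aortas at 6 months, against 824, 1186, 957 and 1246 CPM at 4 months, and did not pass (log2 fold change -0.01). Dio2, the deiodinase that activates thyroid hormone, had 126, 121, 80.3 and 43.4 CPM in Ang II aortas at 6 months, against 37.6, 43.1, 27.1 and 38.8 CPM at 4 months, whereas Adrb3, the beta-3 adrenergic receptor, had 224, 178, 118 and 101 CPM in Ang II aortas at 6 months, against 475, 340.4, 619.7 and 544 CPM at 4 months. Of 25 nuclear genes of the respiratory chain 14 fell and none rose (median -0.59), and all 25 fell in sham aortas (-1.04). Cox5b, a subunit of cytochrome c oxidase, had 139, 184, 259.6 and 251 CPM in Ang II aortas at 6 months, against 622, 565, 589.7 and 552 CPM at 4 months. With scaling within length bins 4 of the 25 fell.

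Of the TAM receptors, which bind dying cells through the bridging ligands Gas6 and protein S, Axl rose. Axl (chr7:25757273-25788705) had 242, 201, 215 and 237 CPM in Ang II aortas at 6 months, against 91.2, 113, 79.6 and 109 CPM at 4 months, with no overlap (log2 fold change 1.11, SE 0.14, adjusted p = 0.00026). Sham levels were 309, 276, 243 and 264 CPM at 6 months, against 83.02, 76.98, 65.7 and 147 CPM at 4 months. Gas6, its ligand (chr8:13465374-13494490), had 248, 263, 354 and 369 CPM in Ang II aortas at 6 months, against 174, 187, 169 and 178 CPM at 4 months (log2 fold change 0.72, SE 0.15, adjusted p = 0.0038). Mertk and Tyro3 did not pass (log2 fold changes 0.22 and -0.36), nor did Pros1, protein S (-0.04). The differences of change between Ang II and sham aortas were -0.36 (SE 0.28) for Axl and -0.31 (SE 0.32) for Gas6, and neither passed.

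Genes of the renin-angiotensin system moved in both directions. Of 11 tested, 6 rose and 3 fell. Agtr1a, the main type 1 angiotensin receptor of mice (chr13:30336441-30382867), had 10.96, 12.5, 9.48 and 10.9 CPM in Ang II aortas at 6 months, against 61.2, 36.3, 30.1 and 46.4 CPM at 4 months (log2 fold change -2.07, SE 0.23, adjusted p = 0.00014). Sham levels were 16.3, 9.61, 11.97 and 15.6 CPM at 6 months, against 51.5, 26.5, 63.97 and 31.8 CPM at 4 months. Agt, angiotensinogen, had 1.88, 2.74, 6.21 and 14.3 CPM in Ang II aortas at 6 months, against 20.05, 32.1, 26.9 and 45.1 CPM at 4 months. Lnpep, an aminopeptidase that binds angiotensin IV, had 345, 318, 202 and 197 CPM in Ang II aortas at 6 months, against 24.2, 22.3, 24.6 and 23.1 CPM at 4 months, and Ace, the converting enzyme, had a log2 fold change of 1.15. In sham aortas 7 genes of the list rose and 3 fell.

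Of 24 oxidant and antioxidant genes 4 rose and 10 fell in sham aortas, and none passed the test of a different change. In Ang II aortas 2 rose and 10 fell, or 3 and 8 with scaling within length bins. Nox4, a hydrogen peroxide producing NADPH oxidase of the vessel wall, had 62.5, 63.1, 32.4 and 27.9 CPM in Ang II aortas at 6 months, against 13.2, 4.43, 4.48 and 5.88 CPM at 4 months (log2 fold change 2.65, SE 0.44, adjusted p = 0.0012). Those that fell included Gpx3, extracellular glutathione peroxidase, with 1709, 1577, 1831 and 1643 CPM in Ang II aortas at 6 months, against 5848, 4912, 5272 and 4545 CPM at 4 months, and Sod1, Cat and Prdx1, which break down superoxide or peroxide (log2 fold changes -1.51, -1.04 and -0.89). The other that rose, Duox1, an oxidase of epithelia, had 2.92, 2.16, 21.7 and 12.8 CPM in Ang II aortas at 6 months, against 0.681, 1.67, 0.546 and 0.582 CPM at 4 months (log2 fold change 3.42, SE 0.82, adjusted p = 0.0073). Without Ang II replicates 3 and 4 its log2 fold change was 1.54 and its adjusted p 0.052. It was highest in the replicates with the most squamous epithelium transcripts.

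Clock genes moved in both directions. Of 19 genes 10 rose and 3 fell. Arntl, Clock and Npas2, which form the activating arm of the clock, rose by log2 fold changes of 1.16, 1.44 and 1.98. Dbp, an output gene driven by that arm, had 50.8, 38.8, 68.4 and 62.8 CPM in Ang II aortas at 6 months, against 125, 134, 163 and 180.0 CPM at 4 months, and Ciart, a repressor of it, fell by 1.06 on the log2 scale. In sham aortas 5 rose and 7 fell, with log2 fold changes of 2.12 for Arntl and -2.45 for Dbp. The hour of tissue collection is not given in the sources used here.

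Cartilage, Wnt and stress genes complete the lists. Col10a1, a collagen of hypertrophic cartilage, had 30.1, 12.4, 6.5 and 6.5 CPM in Ang II aortas at 6 months, against 0, 0.365, 0 and 0.116 CPM at 4 months, and Acan, the cartilage proteoglycan aggrecan, had 39.9, 14.4, 8.74 and 3.13 CPM in Ang II aortas at 6 months, against 1.36, 0.521, 0.109 and 1.11 CPM at 4 months. Both were highest in replicate 1 at 6 months, and 7 of 15 osteochondrogenic genes rose and 1 fell. Of 23 Wnt and Notch genes 11 rose and 2 fell; Wnt16, a Wnt ligand, had 3.95, 4.52, 4.22 and 4.88 CPM in Ang II aortas at 6 months, against 0.909, 0.261, 0.0546 and 0.175 CPM at 4 months. Of 21 heat shock and ER stress genes 10 fell and none rose, or 8 fell and 2 rose with scaling within length bins. In sham aortas 12 of them fell and 4 rose. Ddit3, the stress-induced factor CHOP, had 13.97, 15.9, 19.7 and 23.9 CPM in Ang II aortas at 6 months, against 44.8, 39.7, 37.2 and 37.5 CPM at 4 months. Igfbp5, an IGF binding protein associated with senescence, had 1408, 1239, 1918 and 2288 CPM in Ang II aortas at 6 months, against 388, 368, 380.1 and 392 CPM at 4 months, while of 17 senescence and DNA damage genes 2 rose and 4 fell, or 4 and 1 with scaling within length bins. Cell cycle genes fell in 3 of 24 cases and rose in none, and none passed with scaling within length bins. Erythroid genes rose in 4 of 7 cases and fell in 1, whereas without Ang II replicates 3 and 4, 2 of 8 rose and 1 fell (median 1.02, against 2.19 with all libraries). Alas2, the haem synthesis enzyme of red cell precursors, had 29.6, 51.8, 29.1 and 161 CPM in Ang II aortas at 6 months, against 5.68, 3.55, 7.21 and 13.6 CPM at 4 months. Of 19 arterial tone genes 7 rose and 1 fell. Of 25 nuclear RNA-binding genes 4 rose and 12 fell (median -0.19), and without Ang II replicates 3 and 4, 6 rose and 7 fell (median 0.02). In the remaining lists 1 of 10 platelet genes, 2 of 13 cardiac muscle genes and 1 of 7 thymocyte genes rose and none fell. With scaling within length bins 4 platelet and 5 cardiac genes rose, and of the thymocyte genes none rose and 1 fell. Of 22 immediate early genes 3 rose and 1 fell (median 0.04), and without Ang II replicates 3 and 4, 2 rose and 5 fell (median -0.64).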

How the data were processed

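RNA-seq counts of aortic homogenates were analysed from 16 of the 24 libraries, 4 in each group. The authors deposited raw read counts per gene; per the submitters' processing notes, FastQC, cutadapt, STAR, featureCounts and DESeq2 were used with mouse build mm10. Which annotation release and strand setting were used, and how reads of several genes were counted, is not given in the sources used here, so counts of near-identical copies and of overlapping or antisense genes are uncertain. The counting unit was tested on the values, which are whole numbers. Gene names, chromosomes and biotypes came from the authors' deposited tables where these held the gene, and otherwise from GENCODE vM21. Exonic length came from GENCODE vM21.

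Protein-coding genes off chromosome M were kept (19117). Each comparison of 6 with 4 months was fitted on its own 8 libraries, and the interaction on 16, with edgeR 4.0.16 in R 4.3.3 (TMM scaling, filterByExpr with a minimum count of 10 and a minimum total of 15, quasi-likelihood F test, Benjamini-Hochberg adjusted p of 0.05 over all genes tested). All adjusted p-values are from these fits unless another is named. CPM are counts per 1e6 counts in the kept genes, TMM-scaled over the 16 libraries. Bounds against a group with no count use a floor of 3 counts over the group, and intervals and floors cover counting error only. The steps were tested on simulated counts in which a small set of genes was changed by known folds. Neither a change in the kind of library nor an order by exonic length was simulated, so that test does not cover them.

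The genes and lists were chosen with earlier results of these data known. Genes named by rule were the 12 largest rises and falls with a mean of at least 1 CPM, the 3 largest called changes of each list the 10 smallest interaction p-values, and Axl, Mertk, Tyro3, Gas6, Pros1, Agtr1a, Acta2, Myh11, Eln, Col1a1 and Col3a1 whatever their change. Other genes named, and 4 tissue lists, were chosen after their values were seen. Alternatives were DESeq2 1.42.0, limma 3.58.1, other scalings and filters, a replicate block, covariates and left-out libraries. Correlations of same-numbered replicates' deviations were 0.127, -0.063, -0.069 and 0.191, so that the numbers were not taken to pair samples. Single values of some genes are not reported here, and those genes are left out of the counts of genes picked by rule.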

Additional observations from a re-analysis of the deposited data

Results flagged for a closer look

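Among 174 groups of 4 libraries whose single values are given for a gene, 17 held 1 library whose distance from the nearest of the others exceeded the 95% limit of Dixon's test for its group. Chance alone marks about 1 group in 20. In Ang II aortas at 6 months these were replicate 1 for Cfd (2440 CPM, the lowest) and Col1a1 (796 CPM, the highest), replicate 3 for Dbh (1.14 CPM) and Cyp21a1 (0.11 CPM, 1 of 4 libraries above 0), and replicate 4 for Aif1 (4.13 CPM) and Tnfrsf13c (7.63 CPM). Replicate 4 was the shallowest of the 16 libraries.

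In Ang II aortas at 4 months, replicate 1 stood above the others for the adrenal genes Hsd3b1 (77 CPM) and Cyp21a1 (57.4 CPM), for Mmp12 (15 CPM) and for Nox4 (13.2 CPM). Replicate 2 stood above the others for Duox1 (1.67 CPM) and held the only count of Krt13 (0.0521 CPM), and replicate 3 was low for Loxl4 (1.37 CPM). In sham aortas at 4 months, replicate 4 stood above the others for Acta2 (1492 CPM), Myh11 (744 CPM), Mmp14 (38.9 CPM) and Fasn (14715 CPM).

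The change between the times differed between Ang II and sham aortas, by the edgeR interaction test, for Mmp14 (-1.06 on the log2 scale, Ang II minus sham), Ms4a7 (-2.31), Cd68 (-2.06), Uap1l1 (-1.08) and Fam83a (1.57).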

How the results depend on the processing

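The time and the kind of library change together, so that no alternative separates them. Over the scaling, filter, tool and single-library alternatives the count of genes called in Ang II aortas stayed within 1.5 times of 8236. It was 7356 to 8048 with 1 library left out, 6713 with scaling within 10 bins of exonic length (5531 of them shared with the 8236) and 8195 without replicates 3 and 4 at 6 months. It was 3173 with the adipocyte list as a covariate and 3984 for changes of 1 or more on the log2 scale. In sham aortas those last counts were 0 by edgeR (2316 at an unadjusted p under 0.05) and 4606.

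The 5 calls of the interaction test were less stable. They became 305 with DESeq2, 3 with no low-count filter, 2 with the adipocyte covariate, 13 with all 24 libraries in 1 fit and 344 without Ang II replicates 3 and 4 at 6 months, and ranged from 0 to 37 with 1 library left out (37 without sham replicate 4 at 4 months, 0 in 9 of 16 such fits). Upper quartile scaling called 4, none of them higher. With the replicate number as a block the counts were 7685 in Ang II aortas, 8406 in sham aortas and 0 for the interaction. Among the Ang II samples, only replicate 4 at 4 months correlated best with its own number at the other time.

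Of 147 called genes picked by rule, 131 kept their call with any 1 library left out, 131 with scaling within length bins and 128 without replicates 3 and 4, but only 70 with the adipocyte covariate, where 72 no longer passed and 5 changed sign. Signs reversed, with the cause not tested, under the adipocyte covariate for Ryr1 (-0.27), Myh1 (-1.46), Mybpc3 (-0.18), Hbb-bs (-1.25) and Arpp21 (-0.069), and without replicates 3 and 4 for Sftpc (-1.41). Depth limits genes of a few counts, most in Ang II replicate 4 at 6 months with 8.77 in units of 1e6 counts.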
